A study of Homo sapiens with 7 samples.

Results

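The genes described here encode the desmosome and adherens junction of the intercalated disc, the structure that joins heart muscle cells end to end. The 10 genes were chosen by symbol (CDH2, CTNNB1, JUP, CTNNA1, CTNNA3, DSP, PKP2, DSG2, DSC2 and TJP1) and all 10 were found among the 60234 genes of the deposited expression table. RNA was sequenced after poly-A selection from cardiomyocytes differentiated from WTC-11, an established human induced pluripotent stem cell line, and matured for 35 days. An ASO (antisense oligonucleotide), a synthetic strand designed to bind and block or degrade 1 target RNA, was then applied for 96 h at 2 uM. The control cells received a scrambled ASO (3 libraries) and the treated cells an ASO against MYH7B (4 libraries), so ASO exposure was common to both groups. All libraries came from 1 cell line, and the labels do not say whether libraries of a group came from separate differentiations, so p-values measure only the spread between these libraries, which may be technical.

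Adherens junctions hold neighbouring cardiomyocytes together through N-cadherin, whose tail binds beta-catenin or plakoglobin, and through alpha-catenins that link this complex to actin. Desmosomes use desmosomal cadherins, plakoglobin, plakophilin and desmoplakin to anchor the intermediate filaments. In the heart both kinds of junction share components in a mixed structure, and inherited variants in several of these genes are known from arrhythmogenic cardiomyopathy.

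Of the 10 genes, CTNNA3, which encodes the alpha-T-catenin found mainly in heart and testis, fell 5.33-fold in mean level with the MYH7B ASO. It was the only member past the threshold in either direction (limma on log2(TPM + 1), Benjamini-Hochberg adjusted p under 0.05 over all tested genes). The threshold was passed by 1.66% of the 15988 genes tested, and by 1.48% in the lower direction (236 lower and 29 higher, or 221 and 56 after median-ratio rescaling and 202 and 55 after quantile normalization). The log2 fold changes of the other 9 members lay between -0.33 and 0.26, with adjusted p from 0.403 to 0.974 (limma). Their 95% intervals all lay between -0.72 and 0.67, and changes within those limits could not be resolved with 3 libraries a group. The median log2 fold change was -0.03 for the 10 members and -0.04 for all genes tested.

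Expression is given in TPM, a share of all transcripts of a library that is scaled by transcript length, not genomic span. It can therefore be compared between genes. The TPM values keep no record of sequencing depth, so the depth of each library is unknown. Between 14823 and 16207 genes per library reached 1 TPM. The deposited column of MYH7B ASO library 1 was out of row order (median correlation across genes with the other libraries 0.408, and 0.955 after reordering), and its share of mitochondrially encoded transcripts was 17.2%, while that of the other 6 libraries was 27.4% to 33.6%. Comparisons were therefore made between scrambled ASO libraries 1 to 3 and MYH7B ASO libraries 2 to 4, with values over all 7 beside them. The targeted gene MYH7B was at 23.0, 36.5 and 25.1 TPM in controls and at 9.30, 5.65 and 6.31 TPM in MYH7B ASO libraries 2 to 4, with 1.29 TPM in library 1. Its log2 fold change over 6 libraries was -1.85 (SE 0.24, limma adjusted p = 0.0109). The call was lost over 7 libraries (limma adjusted p = 0.0525) and without MYH7B ASO library 4 (limma adjusted p = 0.0618). It was also lost with no filter on low values (limma adjusted p = 0.0779) and, as for all genes, with either replicate block described below. All 8 cardiomyocyte markers were detected, at 8267 to 9324 TPM in sum with the scrambled ASO and 7177 to 8202 TPM with the MYH7B ASO, and the pluripotency markers summed to at most 3.79 TPM in the 6 libraries.

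**Figure D1:**
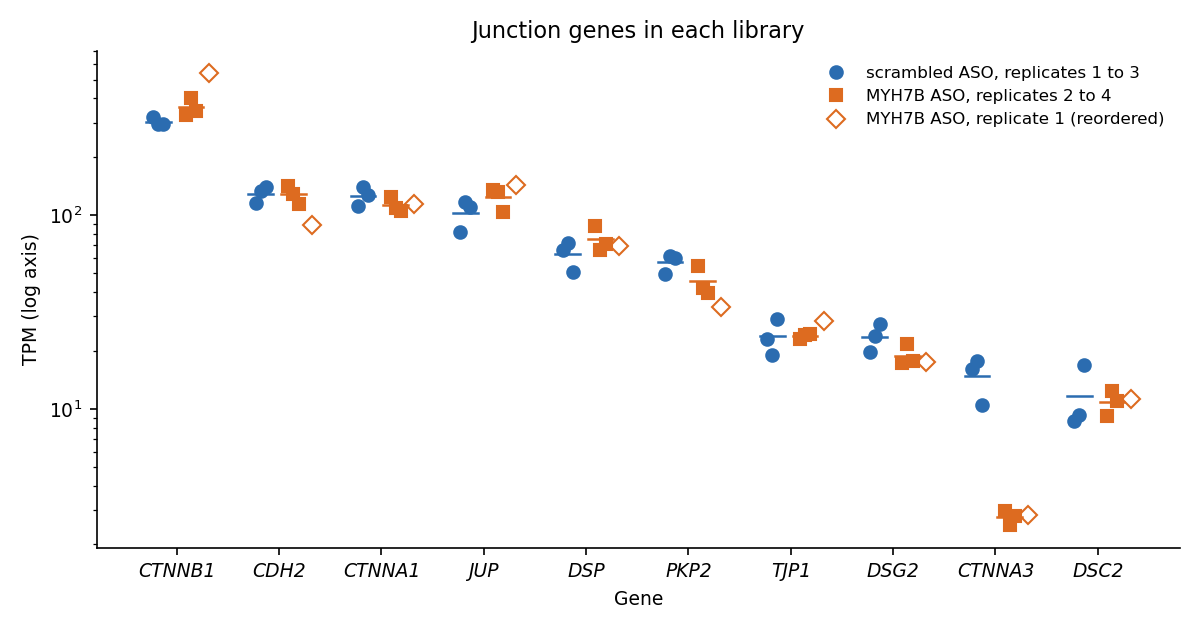
Level of each of the 10 junction genes in every library, in TPM on a log axis. Points are single libraries, grouped by scrambled ASO and MYH7B ASO, with MYH7B ASO library 1 (reordered column) as an open diamond, and lines are the means of the other 3 libraries of a group. CTNNA3 is at 10.5 to 17.6 TPM with the scrambled ASO and at 2.51 to 2.98 TPM with the MYH7B ASO, while the other genes overlap between groups or, for CTNNB1, lie 294 to 320.0 against 330.1 to 403 TPM.

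CTNNA3 (ENSG00000183230.17) lies on the minus strand of chromosome 10, positions 65912518 to 67696169 of GRCh38 in GENCODE 29, and spans 1784 kb. The table of RefSeq start sites (GRCh38.p14) holds a pair of CTNNA3 starts. They are shown because CTNNA3 is the member whose level changed, and each is the 250 bases before the start, read 5′ to 3′ on the minus strand. Capitals mark GATA or its reverse complement TATC, the core letters read by cardiac GATA factors.
CTNNA3 upstream start, chr10:67696196-67696445 (-): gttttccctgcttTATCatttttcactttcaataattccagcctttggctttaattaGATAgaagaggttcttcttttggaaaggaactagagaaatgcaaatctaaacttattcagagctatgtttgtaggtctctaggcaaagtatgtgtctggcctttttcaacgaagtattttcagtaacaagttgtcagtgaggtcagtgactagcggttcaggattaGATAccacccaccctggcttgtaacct
CTNNA3 internal start, chr10:67665661-67665910 (-): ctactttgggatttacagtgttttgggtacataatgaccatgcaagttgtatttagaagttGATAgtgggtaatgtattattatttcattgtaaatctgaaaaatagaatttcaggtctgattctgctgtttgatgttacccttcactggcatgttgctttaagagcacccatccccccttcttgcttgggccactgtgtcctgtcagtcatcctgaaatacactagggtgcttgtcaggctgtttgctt
The upstream window held 3 such matches and was 38.8% G or C, and the internal window held 1 and was 40.4% G or C. The median over all RefSeq windows was 58.0% G or C. Start sites for 9 of the 10 members matched in this table (PKP2 did not), giving 19 windows. GATA, searched on both strands, occurred in 8 of the 19 and in 45.6% of the 35116 windows of all genes. The TEAD core GGAATG, also searched on both strands, occurred in 0 of 19 and in 11.9% of all windows. These are matches of letters only, and which start the cells used was not measured.

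CTNNA3 was measured at 16.1, 17.6 and 10.5 TPM in scrambled ASO libraries 1 to 3, and at 2.98, 2.51 and 2.81 TPM in MYH7B ASO libraries 2 to 4. Every treated library was below every control library, and the treated libraries lay closer together than the controls. The means were 14.7 ± 3.75 TPM and 2.76 ± 0.235 TPM (SD, n = 3 each). The log2 fold change was -2.04 (SE 0.22) with a 95% interval from -2.55 to -1.52 (limma adjusted p = 0.00599), on the log2(TPM + 1) scale, which understates changes of low genes. This was the 48th lowest log2 fold change of the 15988 genes tested. In the exact permutation test the difference had a 2-sided p of 0.1, the smallest that 3 against 3 libraries can give. MYH7B ASO library 1, after reordering, was at 2.83 TPM, inside the range of the other treated libraries. Over 7 libraries the log2 fold change was -2.03 (exact permutation p = 0.0286, again the smallest possible), and CTNNA3 was again the 1 member called, where 1.07% of genes were called and 0.967% were called lower. In the authors' deposited table CTNNA3 stood at -1.92 on the log2 scale (adjusted p-value 7.95e-20), where 8.71% of genes passed 0.05 and 5.69% passed in the lower direction. The fold changes of that table are labelled as shrunken, that is reduced in size, and do not share the limma scale. The call was kept when any 1 of the 6 libraries was left out (limma adjusted p from 0.0105 to 0.0428). It was lost with no filter on low values (limma adjusted p = 0.0549), a fit over 32966 genes. The cause of that loss was not tested.

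In bulk RNA, fewer cells of a type and less RNA per cell cannot be told apart. As a description chosen after the values were seen, the log2 ratio of CTNNA3 to the cardiac troponin gene TNNT2 was -6.10, -6.19 and -6.98 in controls. It was -8.79, -8.54 and -8.54 in MYH7B ASO libraries 2 to 4 and -8.70 in library 1, so the groups also did not overlap relative to this cardiomyocyte gene. The same ratio to ACTN2, the sarcomeric alpha-actinin gene, was -3.65, -3.67 and -4.05 against -5.66, -5.69 and -5.73, with -4.67 in library 1. The cardiomyocyte markers themselves were not level between the groups: 6 of 8 were below 0 with a median log2 fold change of -0.37. An unadjusted p under 0.05 was found for 5 of 8 (limma, 15.2% over all genes), and 0 were called. Of the 8 markers, 1 passed in the authors' deposited table (8.71% over all genes). TNNT2 was at -0.18 and ACTN2 at -0.48, and the lowest was RYR2, the cardiac calcium release channel gene, at -1.03 (limma adjusted p = 0.0536), with 27.3 to 37.9 TPM in controls, 12.4 to 18.3 TPM in MYH7B ASO libraries 2 to 4 and 4.39 TPM in library 1. Of the fibroblast markers 8 of 9 had a log2 fold change below 0, and their summed level was 2915 to 5257 TPM in controls and 1360 to 2091 TPM in MYH7B ASO libraries 2 to 4. In MYH7B ASO library 1 that sum was 4151 TPM. The smooth muscle marker sum was 934 to 1330 TPM against 543 to 723 TPM, with 1075 TPM in library 1. The part of cell type content in the CTNNA3 difference was not tested. The gene LRRTM3 lies inside CTNNA3 on the other strand, at 1.55 to 3.04 TPM in controls and 1.72 to 4.29 TPM in treated libraries. Whether reads were counted by strand is not stated, so reads from LRRTM3 and CTNNA3 may not be fully separated.

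CTNNA1 (ENSG00000044115.21, chromosome 5, 138610967 to 138935034, plus strand) encodes alpha-E-catenin, the widely expressed alpha-catenin. Its level was 111, 139 and 127 TPM with the scrambled ASO and 124, 109 and 105 TPM with the MYH7B ASO, with 114 TPM in library 1. The groups overlapped, and the log2 fold change was -0.15 (95% interval -0.47 to 0.17, limma adjusted p = 0.648). CTNNA3 made up 12.4%, 11.1% and 7.53% of the summed alpha-catenin TPM (CTNNA1, CTNNA2 and CTNNA3) in controls. The share was 2.33%, 2.24% and 2.59% in MYH7B ASO libraries 2 to 4 and 2.39% in library 1. CTNNA2, a low alpha-catenin gene of 1464 kb, was also lower without overlap over 6 libraries, but was not called. It was at 2.43, 1.30 and 2.36 TPM in controls and 0.194, 0.337 and 0.293 TPM in MYH7B ASO libraries 2 to 4. Library 1 was at 1.71 TPM, inside the control range (log2 fold change over 6 libraries -1.23, limma adjusted p = 0.177). The log2 ratio of CTNNA3 to CTNNA1 averaged -3.12 ± 0.42 and -5.35 ± 0.11 (SD, n = 3 each), a difference of -2.23 with no overlap between groups. The 2-sided exact permutation p was 0.1, or 0.3 after adjustment over the 3 ratios tested. Over 7 libraries the difference was -2.22 (exact permutation p = 0.0286, adjusted 0.0857). A ratio within a library does not depend on how that library was scaled.

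**Figure D2:**
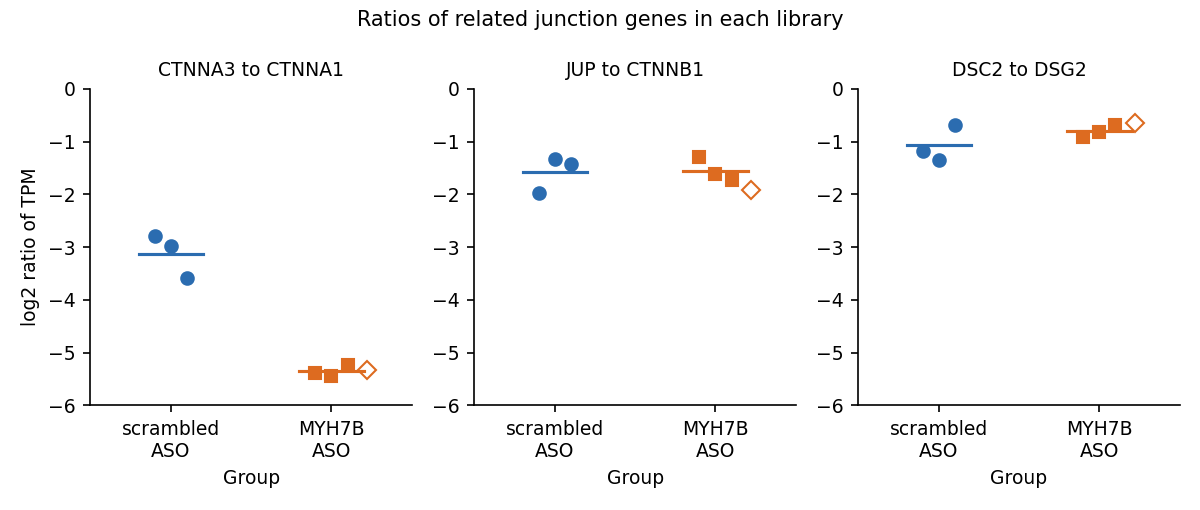
Log2 TPM ratios of CTNNA3 to CTNNA1, JUP to CTNNB1 and DSC2 to DSG2 in every library. Points are libraries and bars are group means over 6 libraries, with MYH7B ASO library 1 drawn apart. The CTNNA3 to CTNNA1 ratio is separated between the groups (means -3.12 and -5.35), and the other ratios overlap.

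The cadherin of the adherens junction, CDH2 (N-cadherin, ENSG00000170558.9, chromosome 18, 27950966 to 28177446, minus strand), was at 115, 133 and 139 TPM in controls. In MYH7B ASO libraries 2 to 4 it was at 142, 128 and 114 TPM, with 88.9 TPM in library 1. The ranges of the 6 libraries coincided almost completely. The means were 129 ± 12.7 and 128 ± 14.2 TPM (SD, n = 3 each), with a log2 fold change of -0.01 and a 95% interval from -0.34 to 0.31 (limma adjusted p = 0.974).

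CTNNB1 (ENSG00000168036.18, chromosome 3, 41194741 to 41260096, plus strand) encodes beta-catenin, which binds the cadherin tail and also carries Wnt signals to the nucleus. It was the most abundant member, at 320.0, 294 and 295 TPM with the scrambled ASO and 330.1, 403 and 346 TPM with the MYH7B ASO. MYH7B ASO library 1 had the highest level, 539 TPM. CTNNB1 was the other member whose groups did not overlap. Without overlap were 2 of 10 members and 21.2% of all genes tested, with 14.1% lower and 7.11% higher with the MYH7B ASO. The log2 fold change was 0.24 with a 95% interval from -0.04 to 0.53 and did not pass (limma adjusted p = 0.403). The authors' deposited table gave CTNNB1 0.29 with an adjusted p-value of 0.182.

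JUP (plakoglobin, ENSG00000173801.17, chromosome 17, 41754604 to 41786931, minus strand) is the armadillo protein related to beta-catenin that serves both adherens junctions and desmosomes. Its level was 81.9, 117 and 111 TPM in controls and 135, 131 and 104 TPM in MYH7B ASO libraries 2 to 4, with 143 TPM in library 1. The groups overlapped, and the log2 fold change was 0.26 (95% interval -0.14 to 0.67, limma adjusted p = 0.535). The log2 ratio of JUP to CTNNB1 averaged -1.57 ± 0.35 in controls and -1.55 ± 0.23 in treated libraries (SD, n = 3 each). The difference of 0.02 lay within the spread (exact permutation p = 0.9, adjusted 0.9), and its sign changed over 7 libraries.

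The desmosomal plaque and cadherin genes overlapped between groups throughout. DSP (desmoplakin, ENSG00000096696.14, chromosome 6, 7541575 to 7586717, plus strand) connects the plaque to desmin filaments. It was at 65.9, 71.8 and 50.7 TPM in controls and 88.0, 66.3 and 71.2 TPM in treated libraries, with 69.5 TPM in library 1. Its log2 fold change was 0.26 (95% interval -0.15 to 0.67, limma adjusted p = 0.545). PKP2 (plakophilin-2, ENSG00000057294.14, chromosome 12, 32790745 to 32896840, minus strand) is the main plakophilin of cardiac muscle. PKP2 was at 49.7, 61.6 and 60.4 TPM in controls and 54.8, 42.2 and 39.5 TPM in treated libraries, with 33.5 TPM in library 1. A single treated library, number 2, reached into the control range. The log2 fold change was -0.33 (95% interval -0.72 to 0.06, limma adjusted p = 0.406), the lowest after CTNNA3 among the members, and over 7 libraries it was -0.44 (limma adjusted p = 0.374).

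DSG2 (desmoglein-2, ENSG00000046604.13) and DSC2 (desmocollin-2, ENSG00000134755.17) encode the desmosomal cadherins of heart muscle and lie in 1 cluster on chromosome 18, at 31498043 to 31549008 and 31058840 to 31102522, on opposite strands. DSG2 was at 19.6, 23.7 and 27.3 TPM in controls and 17.2, 21.7 and 17.7 TPM in MYH7B ASO libraries 2 to 4, with 17.4 TPM in library 1. Only library 3 of these 3 lay within the control range. Its log2 fold change was -0.30 (95% interval -0.71 to 0.11, limma adjusted p = 0.476). DSC2 was at 8.67, 9.36 and 16.9 TPM in controls and 9.17, 12.4 and 11.0 TPM in treated libraries, with 11.2 TPM in library 1. Scrambled ASO library 3 was the high one, so the treated range lay inside the control range. The DSC2 log2 fold change was -0.04 with the widest interval of the members, -0.63 to 0.54 (limma adjusted p = 0.955). The log2 ratio of DSC2 to DSG2 differed by 0.27 between the groups, within the spread (exact permutation p = 0.3, adjusted 0.45). Without scrambled ASO library 3 it was 0.46 and the groups did not overlap (exact permutation p = 0.1, the smallest possible, adjusted 0.15), and without scrambled ASO library 2 it was 0.14.

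TJP1 (ZO-1, ENSG00000104067.16, chromosome 15, 29699367 to 29968865, minus strand) is a scaffold that links junction proteins to actin and borders the gap junctions of the disc. It was at 22.9, 18.9 and 29.2 TPM in controls and 23.0, 24.0 and 24.4 TPM in treated libraries, with 28.4 TPM in library 1. The treated libraries were tightly grouped inside the control range, with means of 23.7 ± 5.15 and 23.8 ± 0.720 TPM (SD, n = 3 each). The log2 fold change was 0.03 (95% interval -0.38 to 0.44, limma adjusted p = 0.958).

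**Figure D3:**
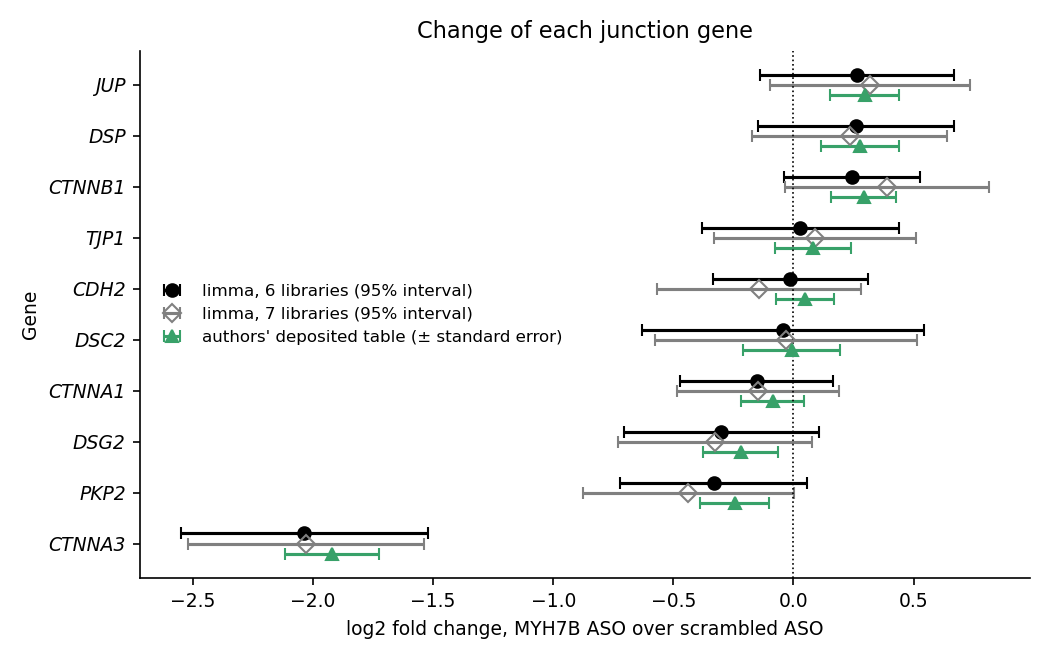
Log2 fold change of each junction gene, MYH7B ASO over scrambled ASO. Black circles are limma estimates over 6 libraries and open diamonds those over 7 libraries, both on the log2(TPM + 1) scale with 95% intervals. Triangles are the values of the authors' deposited table, labelled as shrunken and not on that scale, with their standard errors. The CTNNA3 interval (-2.55 to -1.52) lies wholly below 0, and the other 9 intervals over 6 libraries include 0.

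The order of the members by level was largely shared by both groups, apart from CTNNA3. With the scrambled ASO, CTNNB1 stood highest, followed by CDH2, CTNNA1 and JUP, whose neighbouring ranges overlapped. DSP and PKP2 came next with overlapping ranges, then TJP1 and DSG2, and CTNNA3 and DSC2 were lowest with ranges that overlapped. With the MYH7B ASO, CTNNA3 was lowest without overlap with DSC2, the gene next to it. DSP, PKP2, TJP1 and DSG2 kept that order in the treated libraries, each without overlap with its neighbour. CTNNB1 made up 39.5%, 33.1% and 34.0% of the summed TPM of the 10 members in controls and 35.6%, 42.8% and 41.4% in MYH7B ASO libraries 2 to 4. The sum itself was 811, 887 and 866 TPM against 926, 941 and 836 TPM, so the groups overlapped. Library 1 was the highest in both, with a CTNNB1 share of 51.4% and a sum of 1048 TPM.

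CTNNA3 also differs from the other members in its length. Over the 37 tested genes that span more than 1000 kb, the median log2 fold change was -0.71, 33 were below 0 and 5 were called lower (13.5%). CTNNA3 had the 3rd lowest value of these 37. CTNNA1, at 324 kb, falls among 534 genes of 300 to 1000 kb with a median of -0.56 and 12.5% called lower, and its own value of -0.15 was above that median. CDH2, PKP2 and TJP1 fall in the class of 100 to 300 kb, with a median of -0.25 and 3.39% called lower. DSP, DSG2, DSC2, JUP and CTNNB1 fall in the class of 30 to 100 kb, with a median of -0.10 and 1.06% called lower. In genes of up to 10 kb the median was 0.09, 1748 of 4335 were below 0 and 0.392% were called lower. The part of gene length in the CTNNA3 difference was not tested.

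**Figure D4:**
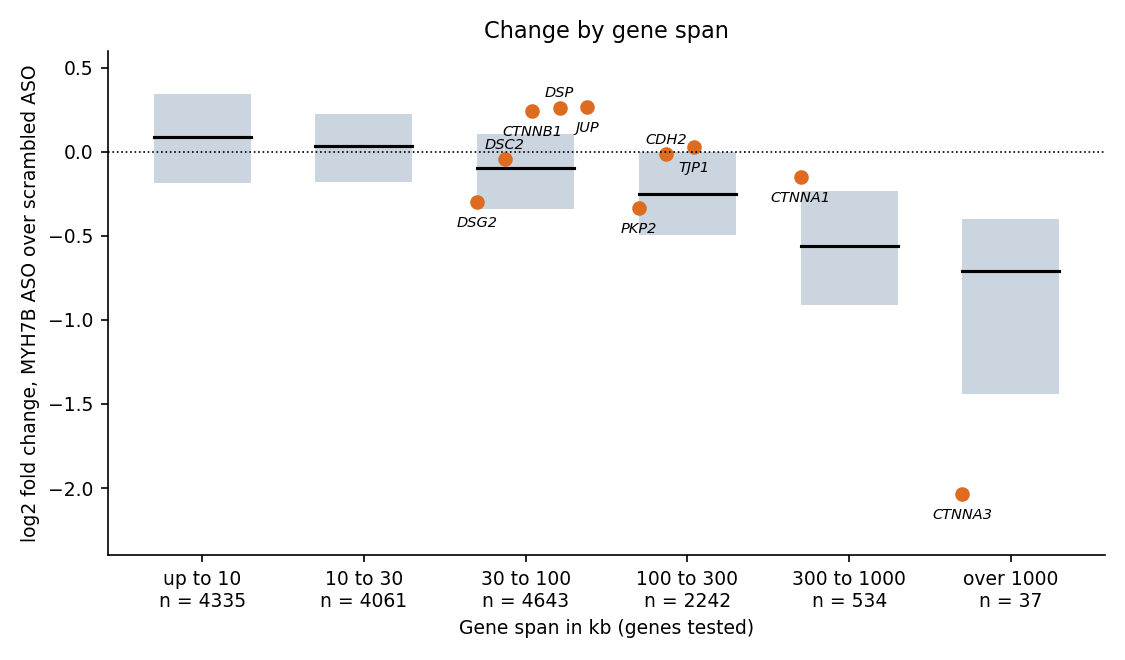
Log2 fold change by gene span in kb, in 6 classes. Boxes are the middle quartiles of all tested genes of a class, lines are medians (from 0.09 in the shortest class to -0.71 in the longest), and orange points are the junction genes. CTNNA3, at -2.04, lies below the box of its class, and CTNNA1, at -0.15, lies above the box of its own.

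The remaining genes of both junctions were read from lists of related components. Of 11 other desmosome genes, 4 reached the 1 TPM filter and 0 were called (limma; 1 had an unadjusted p under 0.05, as did 15.2% of all genes tested, and 1 had an adjusted p-value under 0.05 in the authors' deposited table, as did 8.71% of its genes). All 4 were below 0, with a median log2 fold change of -0.29, and the median over all genes tested was itself below 0, at -0.04. PERP, a membrane protein of desmosomes, was at 42.3 to 70.0 TPM in controls and 41.6 to 48.5 TPM in treated libraries. PPL (periplakin), a plakin related to desmoplakin, was at 21.1 to 34.5 TPM in controls and 9.08 to 18.1 TPM in MYH7B ASO libraries 2 to 4, without overlap. Library 1, at 64.1 TPM, lay above all of them, and the log2 fold change over 6 libraries was -1.03 (limma adjusted p = 0.122).

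Of 19 other adherens and tight junction genes, 16 were tested and 1 was called, in the lower direction (limma, 1.48% over all genes). Of the 16, 12 were below 0 (median -0.21, against -0.04 over all genes tested). An unadjusted p under 0.05 was found for 6 of the 16 (limma, 15.2% over all genes), and 5 of 17 passed in the authors' deposited table (8.71% over all genes). The called gene was CTNND2, which encodes delta-catenin, a cadherin-binding armadillo protein best known from neurons. It was at 8.93 to 11.7 TPM in controls and 1.04 to 4.42 TPM in MYH7B ASO libraries 2 to 4, with 1.55 TPM in library 1, and fell by 1.85 on the log2 scale (SE 0.35, limma adjusted p = 0.0411). The call was lost when any 1 library other than MYH7B ASO library 4 was left out (limma adjusted p of 0.0867 to 0.132). It was also lost with median-ratio (0.0649) or quantile scaling (0.0850), a pseudocount of 0.1 (0.0503), mitochondrially encoded genes removed (0.0501), eBayes without trend (0.0824) and no filter (0.201), all limma adjusted p. Like CTNNA3 it is a long gene, of 932 kb.

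Of 13 cytoskeletal and anchoring genes of the disc, 11 were tested and 1 was called, again lower (limma, 1.48% over all genes). Of the 11, 10 were below 0 (median -0.21, against -0.04 over all genes tested). An unadjusted p under 0.05 was found for 4 of the 11 (limma, 15.2% over all genes), and 2 of 11 passed in the authors' deposited table (8.71% over all genes). ANK2 (ankyrin-B), which positions membrane proteins, was at 28.9 to 33.7 TPM in controls and 17.2 to 18.0 TPM in treated libraries, a log2 fold change of -0.78 (SE 0.14, limma adjusted p = 0.0370). In MYH7B ASO library 1 it was at 28.0 TPM, and over 7 libraries the call was lost (limma adjusted p = 0.233). It was also lost when any 1 of the 6 libraries was left out (limma adjusted p from 0.0707 to 0.136), and with median-ratio (0.0585) or quantile scaling (0.0667), eBayes without trend (0.0811) and no filter (0.0788). ANK2 spans 566 kb, and its change lay inside the middle quartiles of tested genes of 300 to 1000 kb (-0.91 to -0.24).

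The gap junction and ion channel genes of the disc, 4 of 6 tested, had 0 called (limma). Of the 4, 1 had an unadjusted p under 0.05 (limma, 15.2% over all genes). Of 5 in the authors' deposited table, 0 passed (8.71% over all genes). GJA1, the gene of connexin 43, was at 92.1 to 171 TPM in controls and 81.5 to 114 TPM in treated libraries (log2 fold change -0.36, limma adjusted p = 0.532). GJC1, the gene of connexin 45, had a log2 fold change of -0.26 (limma adjusted p = 0.567).

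Because CTNNB1 also serves Wnt signalling, its partners and textbook targets were read too. Of 12 genes of the destruction complex and transcriptional partners, all 12 were tested and 0 were called (limma). Of the 12, 7 were below 0, with a median of -0.30, against -0.04 over all genes tested. An unadjusted p under 0.05 was found for 3 of 12 (limma, 15.2% over all genes). In the authors' deposited table, 3 of 12 passed (8.71% over all genes). Of the 12 genes the most abundant were the kinase genes CSNK1A1 and GSK3A, with log2 fold changes of 0.01 and 0.18 (limma adjusted p = 0.981 and 0.721). Of 12 target genes 7 were tested and 0 called (limma), with a median of -0.17. An unadjusted p under 0.05 was found for 2 of 7 (limma, 15.2% over all genes), and 2 of 9 passed in the authors' deposited table (8.71% over all genes). DKK1, a secreted Wnt inhibitor, was at 10.4 to 13.9 TPM in controls and 18.1 to 20.4 TPM in treated libraries, without overlap (log2 fold change 0.67, limma adjusted p = 0.107). CCND1, the gene of cyclin D1, had a log2 fold change of -0.20 (limma adjusted p = 0.558).

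**Figure D5:**
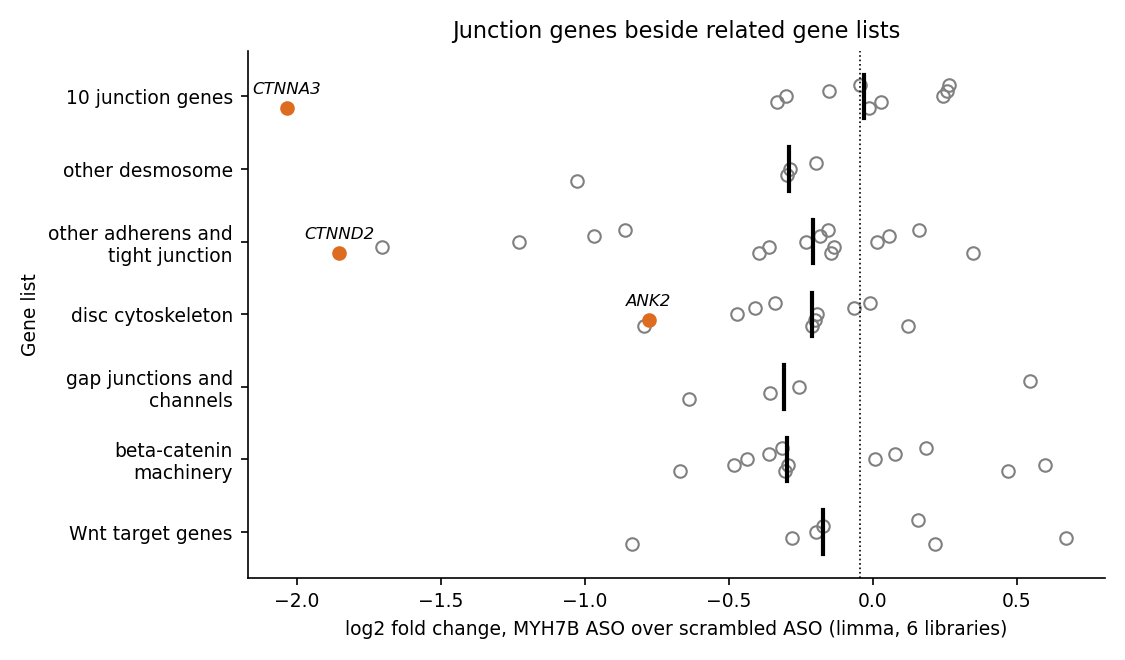
Log2 fold changes of the tested genes in each list, MYH7B ASO over scrambled ASO over 6 libraries. Points are genes, filled where called, short vertical lines are list medians, and the dotted line is the median of all genes tested (-0.04). The called genes of the junction and disc lists are CTNNA3 (-2.04), CTNND2 (-1.85) and ANK2 (-0.78), all lower.

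Markers of other cell types were read in the same way. Of 9 fibroblast markers 7 had an unadjusted p under 0.05 (limma, 15.2% over all genes) and 6 passed in the authors' deposited table (8.71% over all genes), and of 4 smooth muscle markers 3 and 3 did. Among 9 fibroblast markers the collagen gene COL1A2 and the proteoglycan gene LUM were called lower, with log2 fold changes of -1.38 and -2.22 (limma adjusted p = 0.0343 and 0.0489), each lost in 5 of the 6 fits that left out 1 library (limma adjusted p up to 0.157 and 0.191, both kept only without scrambled ASO library 3) and over 7 libraries (0.207 and 0.391). Among 4 smooth muscle markers MYH11 was called lower, at -2.41 (limma adjusted p = 0.00599). Over all genes tested, 1.48% were called lower (limma). Of the epithelial markers 6 of 8 were tested and 0 were called (limma; 1 with an unadjusted p under 0.05, and 1 in the authors' deposited table). KRT8 and KRT18, keratins that bind desmosomes in epithelia, had log2 fold changes of 0.27 and 0.08, and the list summed to 1922 to 2254 TPM in controls and 2215 to 2694 TPM in treated libraries. Among its defining genes EPCAM was at 0.733 to 2.72 TPM over the 6 libraries, and CLDN4 and CLDN7 were under 1 TPM in each. CDH1, the epithelial cadherin, was at 13.6 to 16.0 TPM in controls, 4.48 to 11.4 TPM in MYH7B ASO libraries 2 to 4 and 23.9 TPM in library 1 (log2 fold change -0.97, limma adjusted p = 0.158). CDH3, a cadherin also found in epithelia, was at 43.8 to 93.9 TPM in controls and 38.04 to 51.3 TPM in treated libraries, with 110.7 TPM in library 1. Among 6 endothelial markers 3 were tested and 0 called (limma; 1 with an unadjusted p under 0.05, and 1 in the authors' deposited table), with EGFL7 and KDR at 0.51 and 0.10. PECAM1, CDH5 and VWF, which define that cell type, were at no more than 1.12 TPM in any of the 6 libraries. Their part in the values of the junction genes was not tested.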

How the data were processed

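The authors deposited 1 table of TPM per library and 1 table of their own comparison. The columns deposited in the latter are a signal (the normalized count averaged over the libraries), the log2 fold change and its error, a score, and a p-value before and after adjustment. Per the submitters' processing notes, DESeq2 and the build GRCh38.p13 were used. The aligner, the quantifier and the annotation are not given in the sources used here, and 0 per-sample columns were left unused.

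The libraries were grouped by the treatment label. Genes averaging 1 TPM or more in the 6 libraries compared were tested in R 4.3.3 with limma 3.58.1 (lmFit and eBayes with trend on log2(TPM + 1), Benjamini-Hochberg over all genes tested, called under 0.05), a script tested on simulated data. All 10 members passed the filter. The filled 58721 positions of the column of MYH7B ASO library 1 were matched to sorted GENCODE 29 gene identifiers, which placed 58072 genes, for the fit over 7 libraries. The 3 log2 ratios, without pseudocount, and CTNNA3 were compared by 2-sided exact permutation. Depth is unknown, so the spread between libraries is the only error. Positions of genes come from GENCODE 29 (GRCh38), and start sites from RefSeq on GRCh38.p14.

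The members and lists were chosen with earlier results of these data known. Genes named are the members, MYH7B and, from each list, the called genes (at most 6) or, with none called, the 2 with the highest mean TPM. The genes LRRTM3, TNNT2, ACTN2, RYR2, CTNNA2, CDH1, CDH3, GJA5 and the defining markers at low level were named after their values were seen. Alternatives were pseudocounts of 0.1 and 5, other filters, median-ratio and quantile scaling, removal of mitochondrially encoded genes, eBayes without trend, 7 libraries, 2 replicate blocks and leaving out each library. Tables and plots were made with pandas 2.3.3, numpy 2.4.6 and, in Python 3.11.15, matplotlib 3.10.9.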

Additional observations from a re-analysis of the deposited data

Results flagged for a closer look

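In the 4 MYH7B ASO libraries, 6 of 37 measures examined had a library whose gap to the nearest other, as a share of the whole range, was above Dixon's 95% critical value, which chance passes in about 1 of 20 such groups. Library 1, whose column was reordered, was the high one for ANK2 (28.0 TPM, gap share 0.929), CCND1 (190.1 TPM, 0.833), LUM (43.8 TPM, 0.941) and PPL (64.1 TPM, 0.836). Among the junction genes only DSG2 was flagged, with library 3 high at 21.7 TPM (0.897). For MYL7, the atrial myosin light chain gene, library 4 was low at 3601 TPM (0.944). CTNNA3 was not flagged, and its 4 treated values lay between 2.51 and 2.98 TPM.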

How the results depend on the processing

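CTNNA3 stayed below 0 in all 17 alternatives (log2 fold change -2.34 to -1.33) and was called in 14 of them. The number of members called was 0 rather than 1 with no filter on low values and with either replicate block. Across all genes, 265 were called, 40 with no filter, 150 with eBayes without trend, 170 over 7 libraries and 53 to 149 when 1 library was left out (53 without MYH7B ASO library 4, 97 without scrambled ASO library 1, and 107, 116, 133 and 149 without MYH7B ASO libraries 2 and 3 and scrambled ASO libraries 3 and 2). The cause of these moves was not tested.

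The replicate block by title number called 0 genes (limma, 1718 at an unadjusted p under 0.05), and that by description number 0 (1096). Under either numbering only 2 pairs of the 6 libraries share a number. These fits therefore keep very little information to estimate the spread, and their loss of calls cannot show whether the differences hold within pairs. CTNNA3 was then at -1.97 and -2.002 (limma adjusted p = 0.331 and 0.720). Same-numbered libraries had correlated deviations of 0.019, 0.142 and 0.021 by title and 0.019, 0.021 and -0.118 by description over 7 libraries. Over the 6 compared they were 0.076 and 0.110 by title, each the highest for its libraries, and -0.073 and -0.039 by description. These correlations cannot settle whether same-numbered libraries were paired, and neither numbering is stated to mark a shared differentiation. The main comparison was made without pairs.

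The sign turned for values near 0. CDH2 was at 0.0425 after median-ratio rescaling, 0.0120 without mitochondrially encoded genes and -0.0951 to 0.0683 with 1 library left out. DSC2 was at 0.0103 after median-ratio rescaling, 0.0776 after quantile normalization and -0.21 to 0.24 with 1 library left out. TJP1 was at -0.00125 with the replicate block by title number and -0.11 to 0.18 with 1 library left out. The JUP to CTNNB1 ratio differed by -0.0685 over 7 libraries, -0.0847 and -0.304 with the replicate blocks by title and description number, and -0.18 to 0.14 with 1 library left out. Of 153 alternative values of the other 9 members, 11 turned sign and 0 were called (limma, lowest adjusted p = 0.273). Precision is limited by 3 libraries a group and unknown depth.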
